A study of Homo sapiens with 9 samples.

Results

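The RNAs described here are the expressed long intergenic non-coding RNAs and antisense RNAs of Jurkat cells, a human leukaemia line of the T lineage. They are the rows whose symbol is LINC followed by digits, or ends in -AS and a digit, and whose level reached 1 FPKM (fragment counts divided by transcript length and by library size) in at least 3 of the 9 libraries. Of 1852 rows with such a symbol, 283 met the bound, comprising 76 of 873 LINC rows and 207 of 979 -AS rows, in a table of 26228 rows. The members were thus chosen by their FPKM levels, and a member that reached the bound through 1 group alone had to differ from the other groups. The groups were EZH2-KO1 (KO1) and EZH2-KO2 (KO2), both edited with CRISPR/Cas9 and labelled as EZH2 knockouts, and the unedited EZH2-WT line (WT), with 3 libraries each. RNA came from exponentially growing cells, no treatment is named, and an mRNA kit made the libraries. KO1 and KO2 are each a single edited line, and whether either is 1 clone is not given in the sources used here. The p-values therefore measure the spread between libraries of a line. In such bulk RNA, fewer cells with a transcript and less transcript per cell cannot be told apart.

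EZH2 is the catalytic subunit of Polycomb repressive complex 2, and the H3K27me3 that it writes marks silenced promoters of developmental genes. Long non-coding RNAs are transcripts without a long reading frame. Many start in the promoter of a neighbouring gene and run away from it, while antisense RNAs run along the opposite strand of a gene, and some of either kind act on nearby genes or as scaffolds for proteins. The strandedness of the counting is not given in the sources used here, so where a member overlaps another gene, reads of both genes cannot be told apart.

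RefSeq (GRCh38.p14) gave a current entry for 282 members, 201 by symbol and 81 by synonym, and STX17-AS1 was not matched. Of the matched entries, 263 are listed as lncRNA, 3 as antisense RNA, 6 as transcribed pseudogenes and 10 as protein-coding. The last group includes genes for small proteins that were once thought non-coding, such as LINC00116 (now MTLN, which encodes the mitochondrial microprotein mitoregulin), LINC01420 (now NBDY) and LINC00493 (now SMIM26). A current name ending in -DT, for divergent transcript, applies to 38 members.

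A promoter window, 250 bases before to 50 after the RefSeq start, was found for 223 members, of which 213 are not listed as protein-coding. These 213 windows held a median of 26 CpG and 66.0% G and C, against 14 CpG and 58.3% over all 27305 windows of the table. Windows are printed for the first 2 members with a window among those that rose most and fell most in both edited lines, and for 2 members whose window overlaps that of the sense gene. Capitals mark, on either strand, matches to the E-box CACGTG, to the hypoxia response element cores written ACGTG and, in its other form, GCGTG, to the box known as CCAAT and to the TATA box as TATAAA, so a match on the other strand shows as the reverse complement, and CACGTG contains ACGTG. In the order printed, the windows are DPP10-AS1 (chr2:115161294-115161593, minus strand), VPS9D1-AS1 (chr16:89711606-89711905, plus strand), ZNF436-AS1 (chr1:23368721-23369020, plus strand), LINC01237 (chr2:241881113-241881412, plus strand), BAIAP2-AS1 (chr17:81034670-81034969, minus strand) and SLC2A1-AS1 (chr1:42958799-42959098, plus strand).
DPP10-AS1: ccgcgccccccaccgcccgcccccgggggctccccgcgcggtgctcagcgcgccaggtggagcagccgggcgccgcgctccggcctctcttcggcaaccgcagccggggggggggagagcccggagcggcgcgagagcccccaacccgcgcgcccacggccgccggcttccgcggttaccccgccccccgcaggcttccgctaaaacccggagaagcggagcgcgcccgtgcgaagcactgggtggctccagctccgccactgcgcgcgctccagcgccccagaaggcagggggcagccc
VPS9D1-AS1: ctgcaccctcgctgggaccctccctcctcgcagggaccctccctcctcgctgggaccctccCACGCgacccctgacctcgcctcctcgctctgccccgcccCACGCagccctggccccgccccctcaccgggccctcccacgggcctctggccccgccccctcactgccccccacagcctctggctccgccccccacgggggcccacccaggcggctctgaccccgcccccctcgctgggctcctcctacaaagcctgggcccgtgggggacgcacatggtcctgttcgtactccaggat
ZNF436-AS1: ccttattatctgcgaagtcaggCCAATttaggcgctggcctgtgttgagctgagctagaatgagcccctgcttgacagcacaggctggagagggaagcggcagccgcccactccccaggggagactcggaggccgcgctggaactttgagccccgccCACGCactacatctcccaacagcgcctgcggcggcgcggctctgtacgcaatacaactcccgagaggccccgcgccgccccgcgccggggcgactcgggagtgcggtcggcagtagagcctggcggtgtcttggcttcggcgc
LINC01237: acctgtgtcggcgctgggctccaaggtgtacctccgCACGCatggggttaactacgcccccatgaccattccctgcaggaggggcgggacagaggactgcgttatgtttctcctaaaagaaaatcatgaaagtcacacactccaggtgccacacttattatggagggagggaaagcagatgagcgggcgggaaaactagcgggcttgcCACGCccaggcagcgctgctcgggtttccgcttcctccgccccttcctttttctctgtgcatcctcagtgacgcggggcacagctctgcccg
BAIAP2-AS1: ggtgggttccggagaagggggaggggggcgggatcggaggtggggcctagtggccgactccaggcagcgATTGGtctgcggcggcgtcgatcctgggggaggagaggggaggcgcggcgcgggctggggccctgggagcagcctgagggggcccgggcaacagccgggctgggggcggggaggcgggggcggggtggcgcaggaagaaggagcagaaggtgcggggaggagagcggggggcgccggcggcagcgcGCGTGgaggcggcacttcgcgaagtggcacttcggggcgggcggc
SLC2A1-AS1: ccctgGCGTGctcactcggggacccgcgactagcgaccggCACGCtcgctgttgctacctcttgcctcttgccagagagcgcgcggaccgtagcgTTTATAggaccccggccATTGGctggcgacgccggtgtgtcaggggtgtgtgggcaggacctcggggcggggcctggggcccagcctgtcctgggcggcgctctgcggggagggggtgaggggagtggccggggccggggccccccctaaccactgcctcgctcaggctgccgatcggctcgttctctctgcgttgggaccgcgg
The DPP10-AS1 window had 44 CpG and no match to any of the motifs. SLC2A1-AS1 had 2 matches to GCGTG, 1 to CCAAT and 1 to TATAAA, and ZNF436-AS1 and BAIAP2-AS1 each had 1 GCGTG and 1 CCAAT. VPS9D1-AS1 and LINC01237 each had 2 GCGTG. A match is a run of letters only. GCGTG was in 54.0% of the 213 members' windows against 36.3% of all windows, ACGTG in 29.6% against 21.6%, CACGTG in 11.3% against 7.43%, CCAAT in 36.2% against 35.7%, and TATAAA in 5.16% against 12.0%. The higher G and C content of the members' windows stands beside these shares, and its part in them was not tested. Members that passed in both edited lines against WT had 25 windows among those that rose and 62 among those that fell. GCGTG was in 48.0% of the 25 and 58.1% of the 62, and CACGTG in 0 of the 25 and 8 of the 62. ACGTG was in 5 of the 25 and 19 of the 62, and CCAAT in 8 of the 25 and 22 of the 62. TATAAA went the other way, in 4 of the 25 and 4 of the 62. These differences were not tested, and nothing is read from them.

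Levels are FPKM, and differences are log2 fold changes ± SE on the log2(FPKM + 1) scale, which understates the change of weakly expressed RNAs. Each of the 11737 rows of the table that met the same bound was tested with limma, and a change was called at a Benjamini-Hochberg adjusted p under 0.05 over all of them. The libraries had 11028 to 11415 rows at 1 FPKM or more, and their depth in reads is unknown. All 8 T-cell markers were at 1 FPKM or more in every library, and no myeloid, erythroid or epithelial marker was. Of the T-cell markers, CD2 was at 87.2 to 94.4 FPKM in KO1, 3.54 to 5.11 in KO2 and a median of 35.8 in WT, and CD5 at 14.2 to 15.1 in KO1, 18.2 to 19.6 in KO2 and 32.0 to 36.5 in WT. The part of these markers in the members' results was not tested. Of the B-cell markers, MS4A1 stayed under 0.1 FPKM, while CD79A was at 48.5 to 58.2 FPKM in KO1, 19.1 to 22.1 in KO2 and 24.5 to 29.0 in WT. The EZH2 transcript was at 103 to 108 FPKM in KO1, 87.9 to 90.7 in KO2 and 74.4 to 79.5 in WT, so it was higher in both edited lines than in WT, and these levels do not show what the edit did to the sequence.

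Most of the 283 RNAs were weakly expressed. Their mean level over 9 libraries had a median of 2.41 FPKM, against 12.9 FPKM for all rows tested, with 2.58 for LINC and 2.38 for -AS members and quartiles of 1.32 and 5.60. Only 37 averaged 10 FPKM or more and 12 averaged 20 or more, while 202 averaged under 5. In all 9 libraries 173 were at 1 FPKM or more, 24 reached it in exactly 3, and 10 were listed at 0 in at least 1 library. Just inside the bound, with a third-highest value of 1.01 FPKM, lay BOLA3-AS1, LINC01158 and TMCC1-AS1. Just outside lay SOCS2-AS1 at 0.988, OSER1-AS1 at 0.975 and CACNA1C-AS2 at 0.961.

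A single RNA, LRRC75A-AS1 (now SNHG29, host of small nucleolar RNAs), held 32.0 to 32.8% of the summed member FPKM in KO1 libraries, 29.8 to 30.2% in KO2 and 25.1 to 26.4% in WT. It was at 673, 666 and 660 FPKM in KO1, 639, 638 and 625 in KO2, and 595, 591 and 562 in WT. The 6 edited libraries all lay above the WT libraries, with log2 fold changes of 0.19 ± 0.03 in KO1 (limma adjusted p = 0.000311) and 0.12 ± 0.03 in KO2 (adjusted p = 0.00645). The KO2 call was lost when libraries were centred on their medians (0.08, adjusted p = 0.0726). Without LRRC75A-AS1 the member FPKM summed to 1369 to 1403 in KO1, 1461 to 1499 in KO2 and 1661 to 1687 in WT.

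Of the next 5 most abundant members, LINC00657 and OIP5-AS1 fell in both edited lines. LINC00657 (now NORAD, a cytoplasmic RNA that binds PUMILIO proteins) was at 53.1, 53.9 and 53.6 FPKM in KO1, 55.9, 53.5 and 54.5 in KO2, and 64.0, 64.6 and 64.9 in WT. It fell by 0.26 ± 0.03 in KO1 and by 0.24 ± 0.03 in KO2 on the log2 scale (limma adjusted p = 4.79e-05 and 0.000131), with no overlap between edited and WT libraries. OIP5-AS1 (known as cyrano in zebrafish) was at 60.7, 64.6 and 65.3 FPKM in KO1, 65.4, 61.6 and 60.7 in KO2, and 74.0, 71.5 and 71.5 in WT, and fell in both lines. LINC00493 averaged 71.8 ± 5.04 FPKM in KO1, 82.9 ± 6.06 in KO2 and 91.7 ± 3.38 in WT (SD, n = 3 each), and passed in KO1 alone of the comparisons with WT. FGD5-AS1, at 55.9 to 66.6 FPKM in the edited libraries and 53.2 to 63.0 in WT, and HHIP-AS1, at 41.9 to 51.1 and 44.9 to 47.3, passed in neither line.

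In KO1 against WT, 110 members fell and 47 rose, 55.5% of them in all. Over all rows tested, 67.5% passed, as 31.9% fell and 35.6% rose, whereas among members 38.9% fell and 16.6% rose. The median log2 fold change was -0.17 for members and 0.02 for all rows. Of the LINC members 33 fell and 13 rose, and of the -AS members 77 fell and 34 rose. With a change of 2-fold or more required as well, 23 members fell and 7 rose, against 2.85% and 5.56% of all rows, or 8.4% in either direction. With quantile normalization of the libraries 142 members fell and 33 rose, so the share of calls that rose was 18.9% in place of 29.9%. Over all rows 34.4% fell and 33.7% rose under that scaling.

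In KO2 against WT, 91 members fell and 60 rose, which is 32.2% and 21.2% of them, against 26.6% and 38.1% of all rows, of which 64.7% passed in either direction. The median log2 fold change was -0.09 for members and 0.06 for all rows. Of the LINC members 25 fell and 16 rose, and of the -AS members 66 fell and 44 rose. With 2-fold or more, 19 fell and 5 rose, against 2.16% and 3.89% of all rows, or 6.05% in either direction. Quantile normalization gave 122 falls and 33 rises, a share of 21.3% of calls that rose in place of 39.7%, while 31.3% of all rows fell and 32.4% rose. KO1 and KO2 share the WT libraries in these comparisons. Rows that passed in the same direction in both made up 22.3% (fell) and 30.0% (rose) of all rows, and because the controls are shared nothing is read from the members' own overlap.

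Weak expression and the filter were each looked at by the same counts in subsets chosen after the data had been seen. Among the 173 members at 1 FPKM or more in all 9 libraries, 70 fell and 27 rose in KO1, against 32.9% and 34.0% of such rows, and 58 fell and 39 rose in KO2, against 27.4% and 37.0%. Among the 202 members under 5 FPKM, 69 fell and 32 rose in KO1, against 27.3% and 36.2% of rows at that level, and 56 fell and 40 rose in KO2, against 21.9% and 37.1%. In every subset more members fell than rose, and the part of weak expression and of the filter in the counts was not tested. Across the 6 edited and 3 WT libraries, 83 members (29.3%) lay wholly lower and 38 (13.4%) wholly higher in the edited libraries, against 23.8% and 30.7% of all rows.

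**Figure D1:**
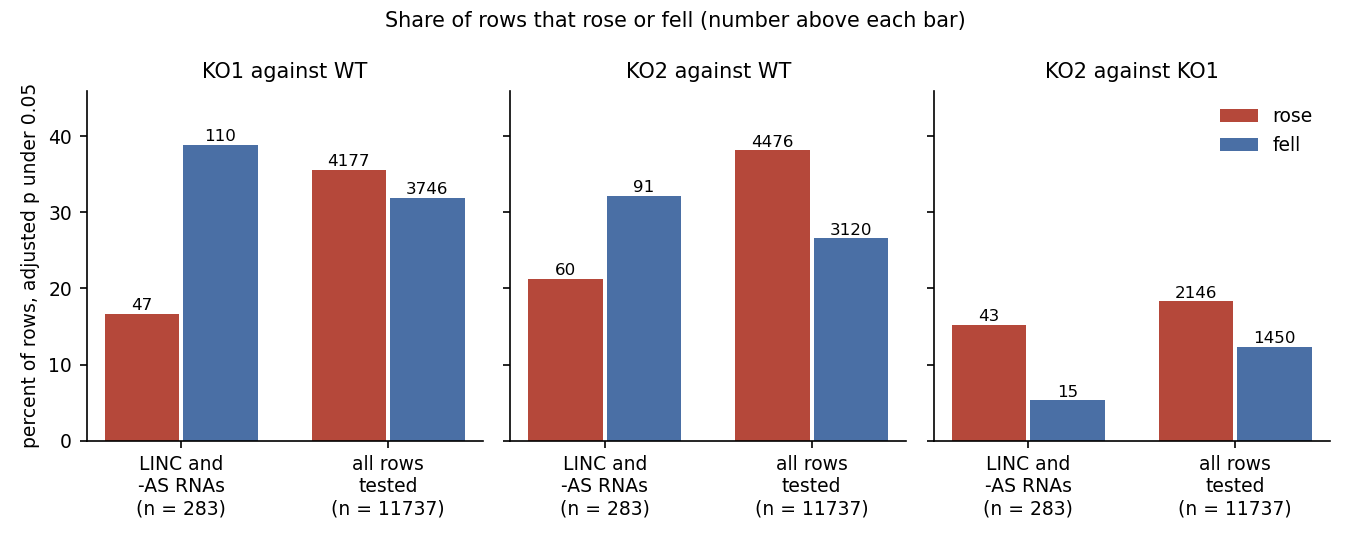
Bars give the percent of rows that rose or fell at a limma adjusted p under 0.05 in each comparison, for the 283 LINC and -AS RNAs and for all 11737 rows tested, with the number of rows above each bar. Among the members the bar for falls is the taller in both comparisons with WT (110 and 91), and the bar for rises is the taller in KO2 against KO1 (43).

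The RNAs that rose most in both edited lines all had -AS symbols, as did 207 of the 283 members. DPP10-AS1, antisense to the gene of a dipeptidyl peptidase-like potassium channel subunit, was at 15.6, 13.1 and 13.2 FPKM in KO1, 6.33, 8.36 and 8.53 in KO2, and 1.30, 2.02 and 1.44 in WT. Every edited library lay above every WT library, and the log2 fold change was 2.54 ± 0.13 in KO1 (limma adjusted p = 3.99e-08) and 1.76 ± 0.13 in KO2 (adjusted p = 8.39e-07). VPS9D1-AS1 was at 8.82, 8.08 and 8.68 FPKM in KO1, 8.44, 9.26 and 10.4 in KO2, and 3.30, 4.52 and 3.65 in WT, a difference of 0.99 ± 0.10 and 1.11 ± 0.10. BAIAP2-AS1 (now BAIAP2-DT), whose printed window overlaps that of BAIAP2, averaged 5.34 ± 0.293 FPKM in KO1, 5.87 ± 0.426 in KO2 and 2.26 ± 0.281 in WT (SD, n = 3 each).

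RASSF8-AS1 was at 1.15, 1.42 and 2.16 FPKM in KO1 and 0.974, 0.987 and 0.536 in KO2, and was listed at 0 in all 3 WT libraries. It therefore met the bound through KO1 alone, and no fold is given against WT. USP2-AS1 was at 1.67, 2.34 and 1.29 FPKM in KO1, 2.23, 1.57 and 1.70 in KO2, and 0.0723, 0.330 and 0.740 in WT. Like CCDC183-AS1, LINC01389 and MZF1-AS1, it was under 1 FPKM in every WT library and at 1 or more in every edited one. These RNAs thus met the bound through edited libraries alone, and nothing is read from their separation from WT. PRKAG2-AS1 rose by 1.39 ± 0.20 in KO1 and 0.71 ± 0.20 in KO2, and FOXN3-AS1 by 0.78 ± 0.21 and 0.92 ± 0.21. IQCH-AS1 rose by 0.69 ± 0.21 and 0.74 ± 0.21, but its KO1 call was lost without KO1 replicate 1 (limma adjusted p = 0.0542) or WT replicate 3 (adjusted p = 0.0519). With no filter on low values the calls of IQCH-AS1 in both lines, FOXN3-AS1 in KO1 (adjusted p = 0.0600) and PRKAG2-AS1 in KO2 (adjusted p = 0.0750) were lost too.

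The RNAs that fell most in both lines were of both kinds. LINC01226 was at 1.18, 0.530 and 0.428 FPKM in KO1, 0.856, 1.09 and 0.944 in KO2, and 7.92, 10.2 and 9.96 in WT, a log2 fold change of -2.61 ± 0.15 in KO1 (limma adjusted p = 1.14e-07) and -2.39 ± 0.15 in KO2 (adjusted p = 3.1e-07). LINC01225 (now LDC1P, listed as a transcribed pseudogene) lies between the same protein-coding genes on chromosome 1, SERINC2 and TINAGL1. It was at 0.601, 0.160 and 0.479 FPKM in KO1, 0.424, 0.697 and 0.839 in KO2, and 3.93, 4.88 and 6.42 in WT. LINC01225 was under 1 FPKM in all edited libraries and met the bound through WT alone, so its separation follows from how members were chosen, and as a pseudogene LINC01225 may share reads with related copies. SERINC2, of a family of serine incorporators, averaged 1.64 ± 0.0367 FPKM in KO1, 1.70 ± 0.252 in KO2 and 3.70 ± 0.201 in WT (SD, n = 3 each) and fell in both lines, by 0.83 and 0.80 on the log2 scale.

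ZNF436-AS1, antisense to a zinc finger gene, was at 2.25, 1.87 and 2.36 FPKM in KO1, 2.26, 2.51 and 1.77 in KO2, and 12.6, 12.9 and 15.0 in WT, with log2 fold changes of -2.20 ± 0.11 and -2.19 ± 0.11. ITGB2-AS1, antisense to the gene of the leukocyte integrin beta chain, was at 0.363, 0.537 and 0.566 FPKM in KO1, 0.794, 0.820 and 1.08 in KO2, and 3.57, 5.32 and 5.36 in WT. SLC2A1-AS1 (now SLC2A1-DT) was at 0.314, 0.334 and 0.251 FPKM in KO1, 0.709, 0.243 and 0.176 in KO2, and 3.06, 2.72 and 2.63 in WT. No edited library of ZNF436-AS1, which was above 1 FPKM in all of them, overlapped WT. SLC2A1-AS1 was under 1 FPKM in all edited libraries and met the bound through WT alone, so its separation follows from how members were chosen. LINC01237 fell by 1.56 ± 0.17 in KO1 and by 1.77 ± 0.17 in KO2, and LINC01251 (now UBE2R2-AS1, which overlaps UBE2R2) by 1.41 ± 0.14 and 1.37 ± 0.14. GLYCTK-AS1 was at 0, 0.0810 and 0 FPKM in KO1, was listed at 0 in all KO2 libraries, and was at 1.23, 1.65 and 2.06 FPKM in WT. It is among the 11 members under 1 FPKM in all 6 edited libraries, which met the bound through WT alone. LINC01226, ITGB2-AS1 and LINC01237 reached 1 FPKM in fewer than 3 edited libraries, so they too needed WT libraries to meet it, and nothing is read from their separation.

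**Figure D2:**
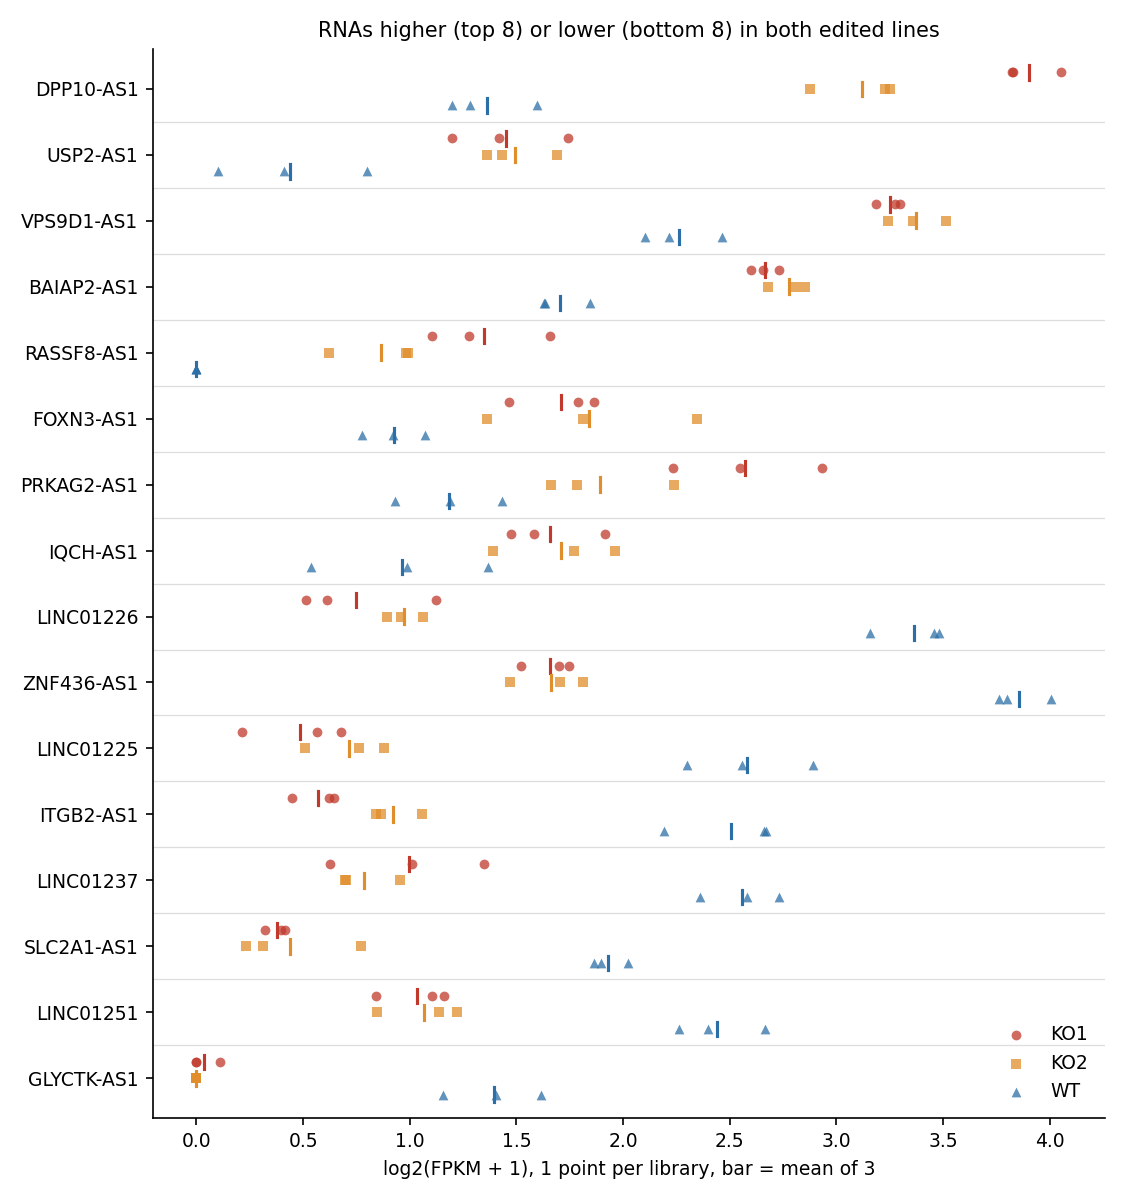
Points give log2(FPKM + 1) in each library of KO1 (circles), KO2 (squares) and WT (triangles), with a bar at the mean of 3, for the 8 RNAs with the largest rises and the 8 with the largest falls among those that passed in both edited lines without overlap. The edited points of DPP10-AS1 stand furthest above WT, and those of LINC01226 and ZNF436-AS1 furthest below.

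Members that were listed for their known interest gave mixed values. Of 25 such names, 24 were in the table, 9 met the bound and 15 did not. CDKN2B-AS1, HOXA-AS2, MAGI2-AS3 and ZEB2-AS1 were listed at 0 in every library. ZEB1-AS1, beside the gene of a repressor of epithelial genes, was at 6.74, 6.98 and 5.16 FPKM in KO1, 8.12, 7.03 and 7.38 in KO2, and 17.7 to 18.5 in WT, and fell by 1.40 ± 0.09 and 1.17 ± 0.09. LEF1-AS1, at the gene of a Wnt effector of T-cell development, averaged 3.55 ± 0.574 FPKM in KO1, 3.20 ± 0.415 in KO2 and 6.48 ± 0.572 in WT (SD, n = 3 each) and fell in both lines. EPB41L4A-AS1 and TP73-AS1 passed in neither line. LINC00152 (now CYTOR) was at 15.5, 16.2 and 6.29 FPKM in KO1, 9.42, 15.0 and 10.1 in KO2, and 8.52, 10.8 and 13.7 in WT. Its groups overlapped and it passed in neither comparison, although without KO1 replicate 3 it passed in KO1 (log2 fold change 0.51, limma adjusted p = 0.0431).

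Antisense RNAs at genes of developmental transcription factors, the class of genes that Polycomb is known for, met the bound about as often as all -AS rows. Of the 43 listed, 9 did, 20.9%, against 21.1% of all -AS rows. In KO1 3 rose and 3 fell, and in KO2 4 rose and 4 fell, counts too small to set against the shares of all rows. SATB1-AS1, FOXN3-AS1 and MNX1-AS1 rose in both lines, while FOXD2-AS1, ZEB1-AS1 and LEF1-AS1 fell in both. FOXD2-AS1 averaged 1.59 ± 0.395 FPKM in KO1, 2.47 ± 0.271 in KO2 and 7.56 ± 0.660 in WT (SD, n = 3 each). Of those under the bound, GATA2-AS1 was at 1.14, 1.21 and 0.899 FPKM in KO1, 0.348, 0.319 and 0.191 in KO2, and listed at 0 in all WT libraries, and it was not tested. It was singled out after its values were seen.

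Each -AS member was set beside the gene whose symbol precedes -AS. It is called antisense here by its symbol, including any member now named -DT. Of 207, the sense gene was in the table for 203 and tested for 176. FPKM is scaled by length, but where transcripts overlap and strand was not used, these levels may hold shared reads. By FPKM the antisense RNA was the lower in 152 pairs and the higher in 24, with median levels of 2.38 FPKM for antisense and 19.5 for sense. In KO1 against WT 98 of the 176 antisense RNAs and 121 of the sense RNAs passed (64 sense RNAs rose and 57 fell), against 67.5% of all rows. Both RNAs passed in 68 pairs, of which 31 fell together, 15 rose together, 18 had a lower antisense and a higher sense RNA, and 4 the reverse. In KO2 against WT 94 antisense and 106 sense RNAs passed (56 sense RNAs rose and 50 fell), against 64.7% of all rows. Both passed in 59 pairs, with 21 falling together, 18 rising together, 15 with a lower antisense and a higher sense RNA, and 5 the reverse. The log2 fold changes of the 176 pairs had a Pearson r of 0.43 (Spearman rho 0.30) in KO1 and 0.33 (rho 0.20) in KO2. The counts of pairs in which both passed were not tested against those of the single RNAs. The correlations describe pairs that share libraries and, where transcripts overlap and strand was not used, reads. The pairs also include members that could meet the bound only with the libraries in which they were high. Directions of such members follow in part from how members were chosen, and their part in the counts and correlations was not tested.

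DPP10 averaged 17.5 ± 1.19 FPKM in KO1, 9.34 ± 1.05 in KO2 and 3.16 ± 0.416 in WT (SD, n = 3 each), and rose with DPP10-AS1, by 2.15 ± 0.09 and 1.31 ± 0.09. RASSF8, of the Ras-association domain family, was at 9.81, 12.1 and 13.2 FPKM in KO1, 5.60, 5.93 and 6.18 in KO2, and 0.0260, 0.0758 and 0.0760 in WT, so it too was near 0 in WT. SLC2A1, the glucose transporter GLUT1, was at 15.0 ± 0.602 FPKM in KO1, 18.8 ± 1.85 in KO2 and 52.9 ± 3.16 in WT (SD, n = 3 each), and fell with SLC2A1-AS1. ITGB2 fell with ITGB2-AS1, by 0.81 ± 0.06 in KO1 and by 0.35 ± 0.06 in KO2, and ZNF436 fell by 0.60 ± 0.09 and 0.59 ± 0.09. USP2 and BAIAP2 rose in both lines, as did USP2-AS1 and BAIAP2-AS1. RASSF8-AS1, SLC2A1-AS1, ITGB2-AS1 and USP2-AS1 could meet the bound only with the libraries in which they were high. Their directions thus follow in part from how members were chosen, and nothing is read from them beside their sense genes.

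In other pairs only 1 of the RNAs passed. GLYCTK, at 1.67 ± 0.166 FPKM in KO1, 1.95 ± 0.151 in KO2 and 1.76 ± 0.236 in WT (SD, n = 3 each), passed in neither line while GLYCTK-AS1 was at or near 0 in both. GLYCTK-AS1 met the bound through WT alone, so its fall follows from how members were chosen and nothing is read from this pair. FGD5, at 1.87 ± 0.0567 FPKM in KO1, 1.74 ± 0.149 in KO2 and 4.52 ± 0.427 in WT (SD, n = 3 each), fell in both lines while its abundant antisense RNA passed in neither. Windows of the antisense RNA and of its sense gene overlapped in 55 pairs and did not in 76, all on opposite strands. In KO1 both RNAs passed in 22 of the 55, with 14 in the same direction, and in 31 of the 76, with 20 in the same direction. In KO2 both passed in 13 of the 55, with 10 in the same direction, and in 29 of the 76, with 17 in the same direction. The difference between the overlapping and the other pairs was not tested.

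**Figure D3:**
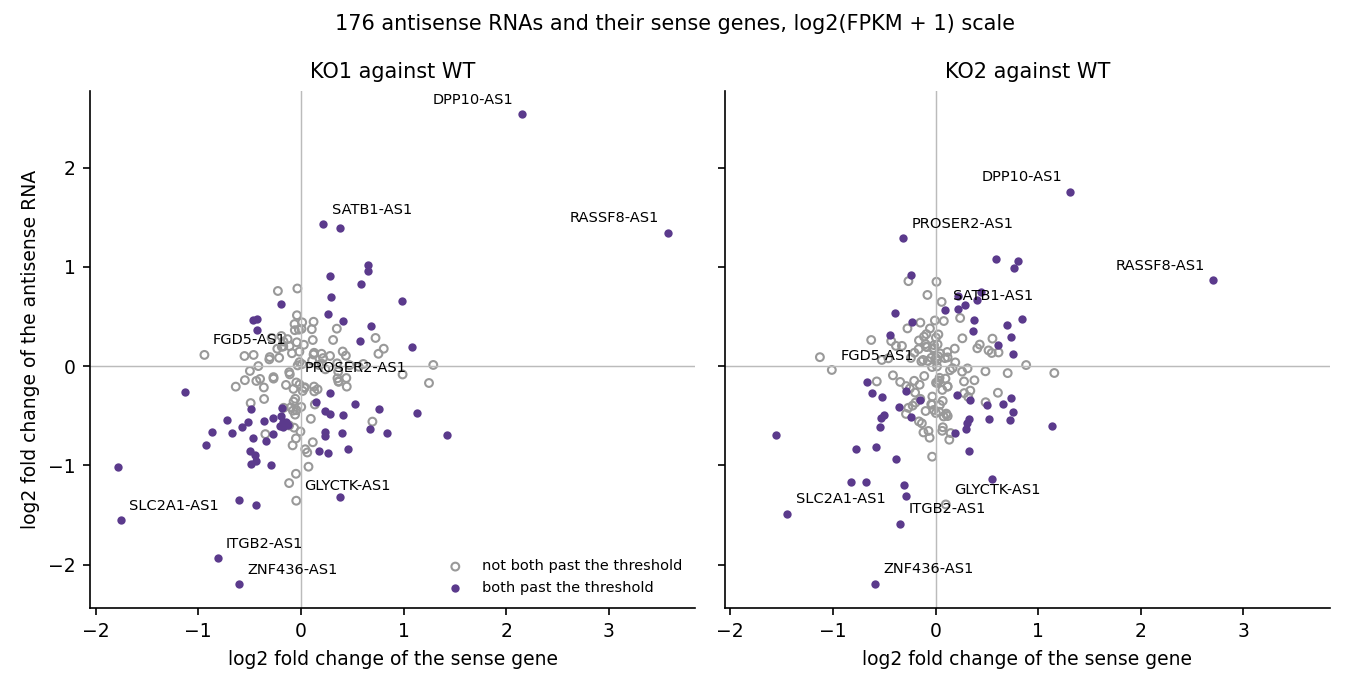
Each point is 1 of 176 pairs, with the log2 fold change of the sense gene on the horizontal axis and that of the antisense RNA on the vertical axis, for KO1 against WT (left) and KO2 against WT (right), and filled points mark pairs in which both passed. DPP10-AS1 and RASSF8-AS1 lie in the upper right in both panels and SLC2A1-AS1, ITGB2-AS1 and ZNF436-AS1 in the lower left. RASSF8-AS1 is listed at 0 in WT, so its position depends on the pseudocount of 1. RASSF8-AS1, SLC2A1-AS1, ITGB2-AS1 and GLYCTK-AS1 could meet the bound only with the libraries in which they were high, so nothing is read from their positions.

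Between the edited lines, 43 members were higher and 15 lower in KO2 than in KO1, which is 15.2% and 5.30% of them, against 18.3% and 12.4% of all rows, of which 30.6% passed in either direction. The median log2 fold change was 0.09 for members and 0.04 for all rows. With 2-fold or more, 3 were higher and 0 lower, against 0.358% and 0.886% of all rows, or 1.24% in either direction. The count depended on single libraries: without KO2 replicate 2, 36 members passed and 26 of them were higher, and without KO1 replicate 2, 28 were higher. With each library centred on its median 31 were higher and 19 lower, so 62.0% of calls were higher in KO2 in place of 74.1%.

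PROSER2-AS1 was at 4.22, 5.29 and 5.16 FPKM in KO2, 1.32, 1.13 and 0.999 in KO1, and 1.24, 1.42 and 1.56 in WT. KO2 stood above both other groups, by 1.45 ± 0.10 against KO1 (limma adjusted p = 3.61e-06). PROSER2 averaged 2.19 ± 0.372 FPKM in KO2 and 2.83 ± 0.0833 in KO1 (SD, n = 3 each), and did not pass between them (limma adjusted p = 0.0528). LINC00116 was at 9.81, 9.41 and 7.28 FPKM in KO2, 2.97, 2.92 and 2.13 in KO1, and 4.25, 4.15 and 3.54 in WT. It passed in opposite directions against WT, higher in KO2 (0.98 ± 0.12, limma adjusted p = 4.97e-05) and lower in KO1 (-0.44 ± 0.12, adjusted p = 0.00822), and the KO1 call did not hold when every row was tested (adjusted p = 0.0532). LINC00094 (now BRD3OS), which overlaps the bromodomain gene BRD3, was the other member with opposite calls, at 6.56, 6.98 and 7.40 FPKM in KO2, 4.93, 4.92 and 5.33 in KO1, and 5.73 to 6.16 in WT. Its KO1 call was lost without KO1 replicate 1, KO1 replicate 2 or WT replicate 3, with adjusted p from 0.0542 to 0.0588. Its KO2 call was lost without KO2 replicate 2, KO2 replicate 3 or WT replicate 1, with adjusted p from 0.0518 to 0.0840, and under both other scalings. BRD3 was also higher in KO2 than in KO1, by 0.41 ± 0.04 (limma adjusted p = 9.01e-05), and was lower than WT in both lines. Reads shared by LINC00094 and BRD3 cannot be told apart.

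LINC00977 separated all 3 groups, at 9.12, 8.17 and 9.12 FPKM in KO2, 2.90, 2.92 and 3.08 in KO1, and 20.2, 20.4 and 19.8 in WT. It fell by 1.11 ± 0.06 in KO2 and by 2.41 ± 0.06 in KO1 against WT on the log2 scale. The nearest protein-coding gene at the lower coordinate is MYC, the growth-promoting transcription factor, which averaged 144 ± 5.33 FPKM in KO2, 141 ± 4.32 in KO1 and 71.1 ± 3.65 in WT (SD, n = 3 each). MYC was thus higher in both edited lines and did not pass between them (limma adjusted p = 0.576). On the other side the nearest is GSDMC, which was not among the rows tested. The distance from LINC00977 to either gene was not examined, and a link between them was not tested. PIK3CD-AS2 was at 17.1, 17.8 and 17.8 FPKM in KO2, 10.3, 10.3 and 8.66 in KO1, and 14.2, 17.2 and 14.5 in WT, and LINC00685 averaged 1.59 ± 0.322 FPKM in KO2, 0.525 ± 0.249 in KO1 and 1.23 ± 0.333 in WT (SD, n = 3 each). LINC00685 was under 1 FPKM in all KO1 libraries and met the bound through KO2 and WT. Its difference from KO1 thus follows in part from how members were chosen.

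Of the RNAs lower in KO2 than in KO1, SATB1-AS1, at the gene of a T-cell chromatin organiser, was at 9.04, 10.7 and 9.71 FPKM in KO2, 20.1, 15.2 and 21.5 in KO1, and 5.89, 6.75 and 6.35 in WT. It was above WT in both lines and 0.87 ± 0.11 lower on the log2 scale in KO2 than in KO1, while SATB1 itself averaged 82.5 ± 0.553 FPKM in KO2, 90.5 ± 0.379 in KO1 and 77.6 ± 2.27 in WT (SD, n = 3 each). LINC01158 (now PANTR1), next to the neural transcription factor gene POU3F3, was at 0.578, 0.174 and 0.383 FPKM in KO2, 1.01, 1.62 and 1.87 in KO1, and 0, 0.554 and 0 in WT. It met the bound through KO1 alone, so its difference from KO1 follows in part from how members were chosen. POU3F3 averaged 1.97 ± 0.125 FPKM in KO2, 2.99 ± 0.357 in KO1 and 0.928 ± 0.114 in WT (SD, n = 3 each), with the same order of means. TMEM182, the gene on the other side, averaged 3.30 ± 0.215 FPKM in KO2, 2.49 ± 0.461 in KO1 and 1.95 ± 0.163 in WT (SD, n = 3 each), and was higher in KO2 than in KO1 (0.31 ± 0.10, limma adjusted p = 0.0432). LINC00467 was at 2.59, 2.22 and 1.71 FPKM in KO2, 4.80, 4.44 and 4.13 in KO1, and 2.22, 1.79 and 1.78 in WT, so KO2 overlapped WT and KO1 stood above both. DPP10-AS1 was lower in KO2 by 0.78 ± 0.13, and PRKAG2-AS1 by 0.68 ± 0.20, a call lost without KO1 replicate 2 or 3, or KO2 replicate 1 or 3 (limma adjusted p from 0.0602 to 0.0909). The LINC01158 call did not hold when every row was tested (adjusted p = 0.0624) and with a pseudocount of 0.1 (adjusted p = 0.0670).

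**Figure D4:**
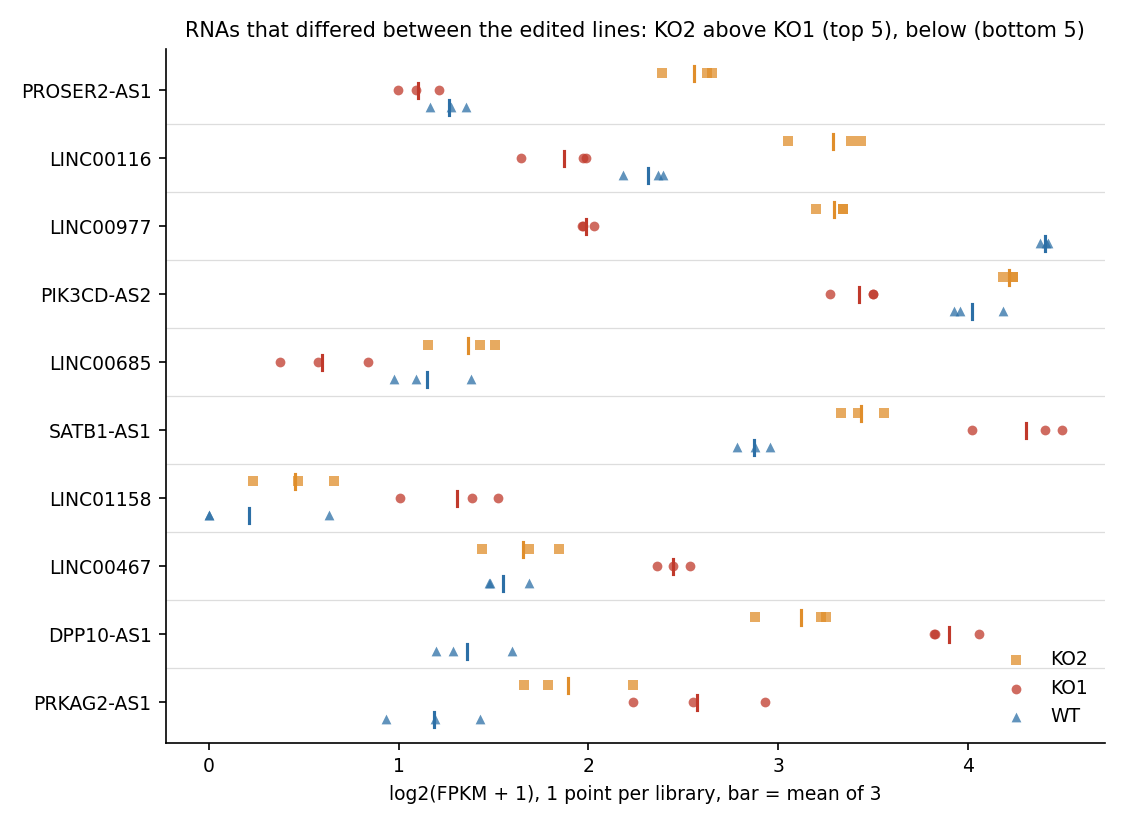
Points give log2(FPKM + 1) in each library of KO2 (squares), KO1 (circles) and WT (triangles), with a bar at the mean of 3, for the 5 RNAs furthest above and the 5 furthest below KO1 in KO2 among those that passed. PROSER2-AS1 is high in KO2 alone, LINC00467 is high in KO1 alone, and LINC00977 is lowest in KO1 and highest in WT.

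Differences between the edited lines are set beside those of all rows of the same chromosome. On chromosome 9, 6 of 14 members were higher and 1 lower in KO2 than in KO1, and 45.6% of its 476 tested rows were higher, with a median log2 fold change of 0.19. On chromosome X, 4 of 9 members were higher and 0 lower, and 58.7% of its 383 rows were higher, with a median of 0.26. All 9 members on chromosome X fell in KO1 against WT, where 68.1% of its rows fell, and 6 of 9 fell in KO2 against WT, where 43.1% did. On chromosome 2, 2 of 20 members were higher and 3 lower in KO2 than in KO1, and 40.4% of its 770 rows were lower. LINC00685 and LINC00094 are on chromosomes X and 9. LINC01158 and DPP10-AS1, lower in KO2, and LINC00116, higher in KO2 by 1.42, are all on chromosome 2. The part of the chromosome in these members' differences was not tested.

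**Figure D5:**
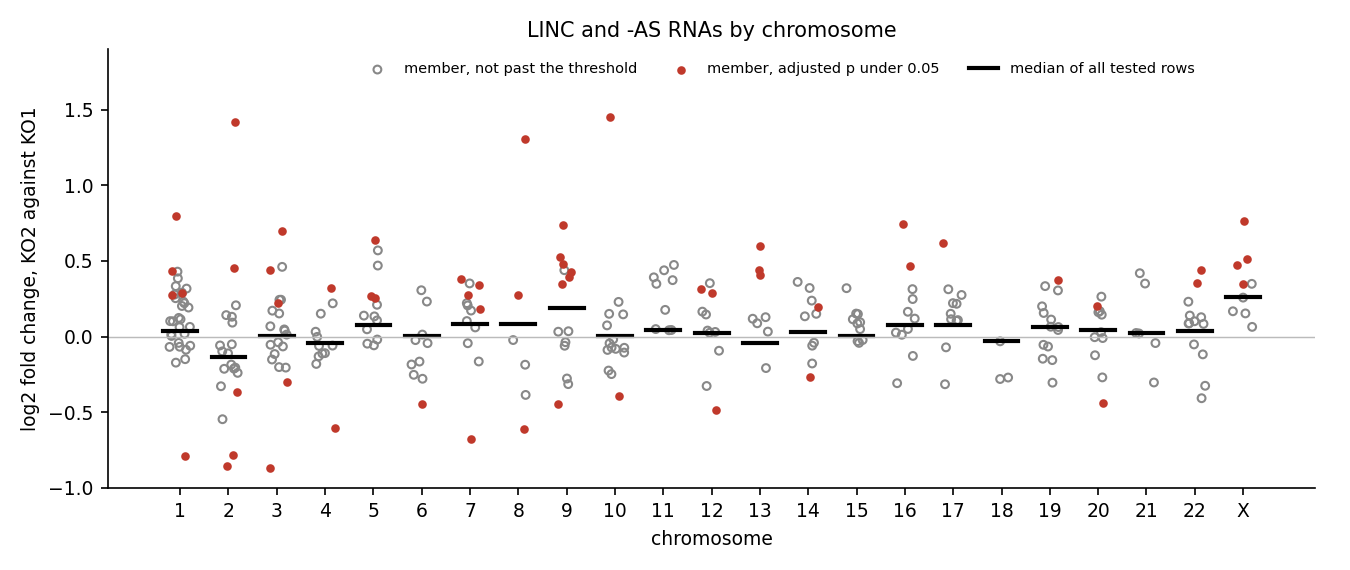
Each point is a member placed by its RefSeq chromosome, with its log2 fold change in KO2 against KO1 on the log2(FPKM + 1) scale, filled where it passed, and black bars give the median of all tested rows of the chromosome. The bars stand highest on chromosomes X (0.26) and 9 (0.19).

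Long non-coding RNAs outside the naming rule were listed for comparison, and 49 of 152 in the table met the bound. In KO1 25 fell and 11 rose, in KO2 17 fell and 16 rose, and in KO2 against KO1 9 were higher and 0 lower. Host genes of microRNAs gave 6 falls and 1 rise among 10 in KO1, and 5 falls and 3 rises in KO2, while host genes of small nucleolar RNAs (SNHG) gave 6 falls and 6 rises among 18 in KO1 and 3 falls and 8 rises in KO2. MIR210HG, host of the hypoxia-induced miR-210, averaged 0.830 ± 0.0289 FPKM in KO1, 1.45 ± 0.474 in KO2 and 10.5 ± 0.545 in WT (SD, n = 3 each). MIR17HG, host of a cluster that MYC is known to activate, averaged 8.61 ± 0.828 FPKM in KO1, 7.80 ± 0.436 in KO2 and 2.67 ± 0.554 in WT (SD, n = 3 each). MIR646HG averaged 2.75 ± 0.0906 FPKM in KO1, 5.52 ± 0.649 in KO2 and 24.1 ± 2.17 in WT (SD, n = 3 each). The part of MYC or of hypoxia in the levels of these host genes was not tested. Of the 10 members that RefSeq lists as protein-coding, 8 fell and 1 rose in KO1, and 4 fell and 3 rose in KO2. Over all rows tested 31.9% fell and 35.6% rose in KO1, 26.6% fell and 38.1% rose in KO2, and 18.3% were higher and 12.4% lower in KO2 than in KO1. The SNHG shares of 33.3% each way in KO1 were near those of all rows, and nothing is read from the counts of these short lists.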

How the data were processed

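Titles of the samples gave groups and replicate numbers. Values are the FPKM that the authors deposited, 1 column per library. The submitters' processing notes list Cufflinks 2.2.1, STAR 2.5.0b, bedtools 2.7.0 and hg19, with no roles. Annotation and strandedness: not given in the sources used here. FPKM hold no counts, so depth is unknown and no counting interval is given; FPKM sums were 417737 to 439704 per library. Rows holding text (38, none a member) were left out. In R 4.3.3, limma 3.58.1 fitted log2(FPKM + 1) with 1 mean per group, a mean-variance trend and no covariates over 11737 rows, and the fit was tested on simulated data. Members, lists and named RNAs were chosen with earlier results of these data known. Named RNAs are the 8 largest rises and falls passing in both lines without overlap, the 5 largest differences each way between KO2 and KO1, the 6 most abundant, 25 names of prior interest, those nearest the bound and those with opposite calls; GATA2-AS1, FOXD2-AS1, MNX1-AS1 and 3 members under 1 FPKM in WT fall outside this rule, as do host genes named. The listed pattern ending in OT1 was narrowed to a digit before OT1 because it caught protein-coding symbols. RefSeq (GRCh38.p14) gave names, gene order and promoter windows only. Alternatives were other filters, a pseudocount of 0.1, quantile normalization, median centring, only the groups compared, no trend, a replicate block and leaving out each library. A listed cell type marker is not reported here.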

Additional observations from a re-analysis of the deposited data

Results flagged for a closer look

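Among the named RNAs, 13 differed between the edited lines by the test of KO2 against KO1 itself (limma on log2(FPKM + 1), adjusted p under 0.05 over all rows). The log2 fold change of KO2 against KO1 was positive for PROSER2-AS1 (1.45), LINC00116 (1.42), LINC00977 (1.30), PIK3CD-AS2 (0.79), LINC00685 (0.77), LINC00094 (0.40) and LINC00493 (0.20). It was negative for SATB1-AS1 (-0.87), LINC01158 (-0.85), LINC00467 (-0.79), DPP10-AS1 (-0.78), PRKAG2-AS1 (-0.68) and RASSF8-AS1 (-0.48). LINC01158 and RASSF8-AS1 met the bound of 1 FPKM through KO1 alone, so that they are lower in KO2 follows in part from how members were chosen. LINC00685 met it without any KO1 library, so that it is higher in KO2 follows in part from the same choice. Those of LINC00493, LINC01158, PRKAG2-AS1 and RASSF8-AS1 lost the call under at least 1 alternative. Most of the 13 were named for this difference or for opposite calls, so their presence here follows from how they were named.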

How the results depend on the processing

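The counts of members passing moved by over 1.5 times under the filters, 1 scaling and some left-out libraries. With FPKM of at least 5 in 3 libraries, 93 members were tested and 68 passed in KO1 against WT (19 rose, 49 fell), 67 in KO2 against WT (24 rose, 43 fell) and 28 in KO2 against KO1 (22 higher, 6 lower). With no filter, 29 passed in KO2 against KO1 (24 higher, 5 lower), and quantile normalization left 33 rises in KO2 against WT. Leaving out 1 library moved the counts by less in KO1 against WT (148 to 160 calls) and KO2 against WT (129 to 152), and gave 36 to 73 in KO2 against KO1 (26 to 56 higher, 10 to 17 lower). The cause was not tested, beyond the fewer rows or libraries that an alternative used. The main fit did not pair libraries by replicate number. Same-numbered deviations correlated at -0.0774 to 0.143 between KO1 and KO2 and -0.287 to -0.0767 between KO1 and WT. Between KO2 and WT they correlated at 0.033 to 0.318, and 3 of 3 correlated best with their own number, so pairing there is not settled. With the replicate block, 155 members passed in KO1 against WT (46 rose, 109 fell), 145 in KO2 against WT (55 rose, 90 fell) and 49 in KO2 against KO1 (35 higher, 14 lower). Over 17 alternatives, 108 differences of named members gave 1788 values, of which 1683 kept direction and call, 38 lost the call, 26 gained it and 41 changed sign; 12 differences lost a call at least once. Every change of sign was of a value that had not passed. Median centring gave -0.00833 for EPB41L4A-AS1 in KO1 against WT and, in KO2 against KO1, -0.00215 for HHIP-AS1, -0.00526 for LINC00657, -0.00211 for LINC01251, -0.0157 for TP73-AS1 and -0.0301 for ZNF436-AS1. Quantile normalization gave -0.0149 for EPB41L4A-AS1 in KO1 against WT, and -0.0319 for LINC00467 and -0.0109 for LINC01158 in KO2 against WT. Leaving out 1 library gave, in KO1 against WT, -0.097 to 0.0977 for EPB41L4A-AS1 and -0.11 to 0.51 for LINC00152. In KO2 against WT it gave -0.10 to 0.0185 for FGD5-AS1, -0.11 to 0.0316 for HHIP-AS1 and -0.13 to 0.22 for LINC00152. In KO2 against KO1 it gave -0.12 to 0.37 for FOXN3-AS1, -0.0562 to 0 for GLYCTK-AS1, -0.0547 to 0.0863 for HHIP-AS1, -0.0789 to 0.21 for IQCH-AS1, -0.45 to 0.16 for LINC00152, -0.0636 to 0.14 for LINC01251, -0.10 to 0.17 for SLC2A1-AS1, -0.0216 to 0.0744 for TP73-AS1, -0.0855 to 0.19 for USP2-AS1 and -0.0701 to 0.10 for ZNF436-AS1.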
